A study of Rattus norvegicus with 17 samples.

Results

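Rats given NVP-BEZ235 at 30 mg/kg were compared with rats given NVP-BEZ235 at 20 mg/kg, using all treated libraries of the series and no others. The comparison holds 10 of the 17 libraries: 3 females and 1 male at 30 mg/kg, and 4 females and 2 males at 20 mg/kg, so 4 against 6. The other 7 libraries came from control rats given polyethylene glycol (PEG) at 20 mg/kg (5 female, 2 male), and they serve here only as a yardstick. Every rat carried a mutation of p27Kip1, labelled homozygous on the samples and heterozygous in the series design, on a Sprague-Dawley white eye/Wistar-Kyoto background, and was 8 months old. No group without the mutation was analysed here. How long the rats were treated is not in the labels. The labels also do not say that each library came from its own animal. The p-values therefore speak only of the variation among libraries, which may be technical. Transcripts were measured on Affymetrix arrays, and values are log2 intensities normalized by the authors with RMA. A difference of 1 on this scale is a 2-fold difference.

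NVP-BEZ235 blocks phosphoinositide 3-kinase (PI3K) and mTOR, kinases that pass on growth factor and nutrient signals. PI3K activates AKT, which keeps FOXO transcription factors out of the nucleus, and mTOR drives protein synthesis, above all that of ribosomal proteins. Cdkn1b encodes p27Kip1, which holds back the cyclin-dependent kinases, and rats that lack it develop tumors of several endocrine glands, among them the pituitary and the adrenal medulla. Chromaffin cells of the adrenal medulla make catecholamines and release them together with neuropeptides from dense-core vesicles. The steroid-making cortex encloses the medulla. The tissue is labelled pituitary adenoma, while the series title names pheochromocytoma, the tumor of chromaffin cells.

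The markers went against the tissue label. Th, the first enzyme of catecholamine synthesis, lay between 12.02 and 12.72 in the 10 treated libraries, and Dbh, which makes noradrenaline, lay between 11.98 and 12.61. Star and Cyp11a1, which start steroid synthesis, lay between 11.54 and 12.39. Pomc, the corticotroph hormone precursor, lay between 3.64 and 7.86, and the median of 11 pituitary hormone and lineage markers lay between 4.02 and 4.66. Of the 11, 3 (27.3%) were higher at 30 mg/kg at an adjusted p below 0.05, against 6.35% of all genes, with medians of 0.23 between doses and 0.46 between control sets, and 1 was without replicate 4. Prl, the gene of prolactin, read 6.06, 6.99, 5.47 and 6.13 at 30 mg/kg and 4.02 to 5.0 at 20 mg/kg, without overlap. The difference was 1.55 (SE 0.27, limma adjusted p = 0.00453). It was -0.37 with the SD of all values on an array as a covariate, which itself separates the doses. The controls read 4.75 to 9.16 in Prl, which spans both doses. Gh1, the gene of growth hormone, and Pitx1, a pituitary transcription factor, were higher by 0.60 and 0.36 (adjusted p = 0.0271 and 0.0418), and 4 libraries for Gh1 and 8 for Pitx1 ended the call when left out singly (adjusted p 0.052 to 0.14), among them replicate 4 at 30 mg/kg. The libraries are described by dose and not by the labelled tissue.

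The dose coincides with the numbers in the sample titles: replicates 1 to 4 are the 30 mg/kg libraries and replicates 5 to 10 the 20 mg/kg libraries. Controls are numbered 1 to 7, so controls 1 to 4 and controls 5 to 7 show how much libraries of these numbers differ with no drug. Dose and title number cannot be told apart among the treated libraries. Controls 1 to 4 are all female, and controls 5 to 7 hold 1 female and 2 males.

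The spread of values on an array followed the title numbers, and the 30 mg/kg libraries were less alike than the 20 mg/kg libraries. The SD of all values of an array was 2.06 to 2.11 at 30 mg/kg and 2.04 to 2.11 in controls 1 to 4, against 2.15 to 2.20 at 20 mg/kg and 2.14 to 2.20 in controls 5 to 7. Correlations between arrays across genes were 0.956 to 0.978 within 30 mg/kg and 0.970 to 0.993 within 20 mg/kg, and 68.5% of genes had the larger SD at 30 mg/kg. Chromaffin markers had a median of 10.07, 9.32, 8.04 and 8.43 in replicates 1 to 4 at 30 mg/kg, while the 20 mg/kg libraries ran from 10.04 to 10.69. The median of these markers was thus low in replicates 3 and 4. Not all markers moved alike: of 12 measured, 5 differed upward and 7 downward between doses, and 3 passed. The median of the cortex markers was 11.18, 11.23, 10.88 and 10.47 at 30 mg/kg and 9.84 to 10.91 at 20 mg/kg. Adipocyte markers were highest in replicate 2 at 30 mg/kg, at 8.63, with 5.68, 6.83 and 5.21 in replicates 1, 3 and 4 and 4.63 to 6.75 at 20 mg/kg. The medians of these cell type markers overlapped between controls 1 to 4 and controls 5 to 7. They were 9.99 to 10.51 and 9.96 to 10.24 for chromaffin markers. For cortex markers they were 10.25 to 11.33 and 10.07 to 10.84, and for adipocyte markers 5.11 to 6.11 and 4.16 to 5.71. At 20 mg/kg, the male replicate 10 stood apart with an immediate early gene median of 7.78, while replicates 5 to 9 lay between 6.36 and 6.69. Its heat shock gene median was 11.36, against 9.30 to 9.68 in replicates 5 to 9, 9.02 to 9.72 at 30 mg/kg and 9.10 to 9.88 in the controls. Between the doses 0 of 12 heat shock genes passed in limma, and 2 had an unadjusted p below 0.05. The share of these measures in the differences below was not tested beyond the settings named beside them.

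**Figure D1:**
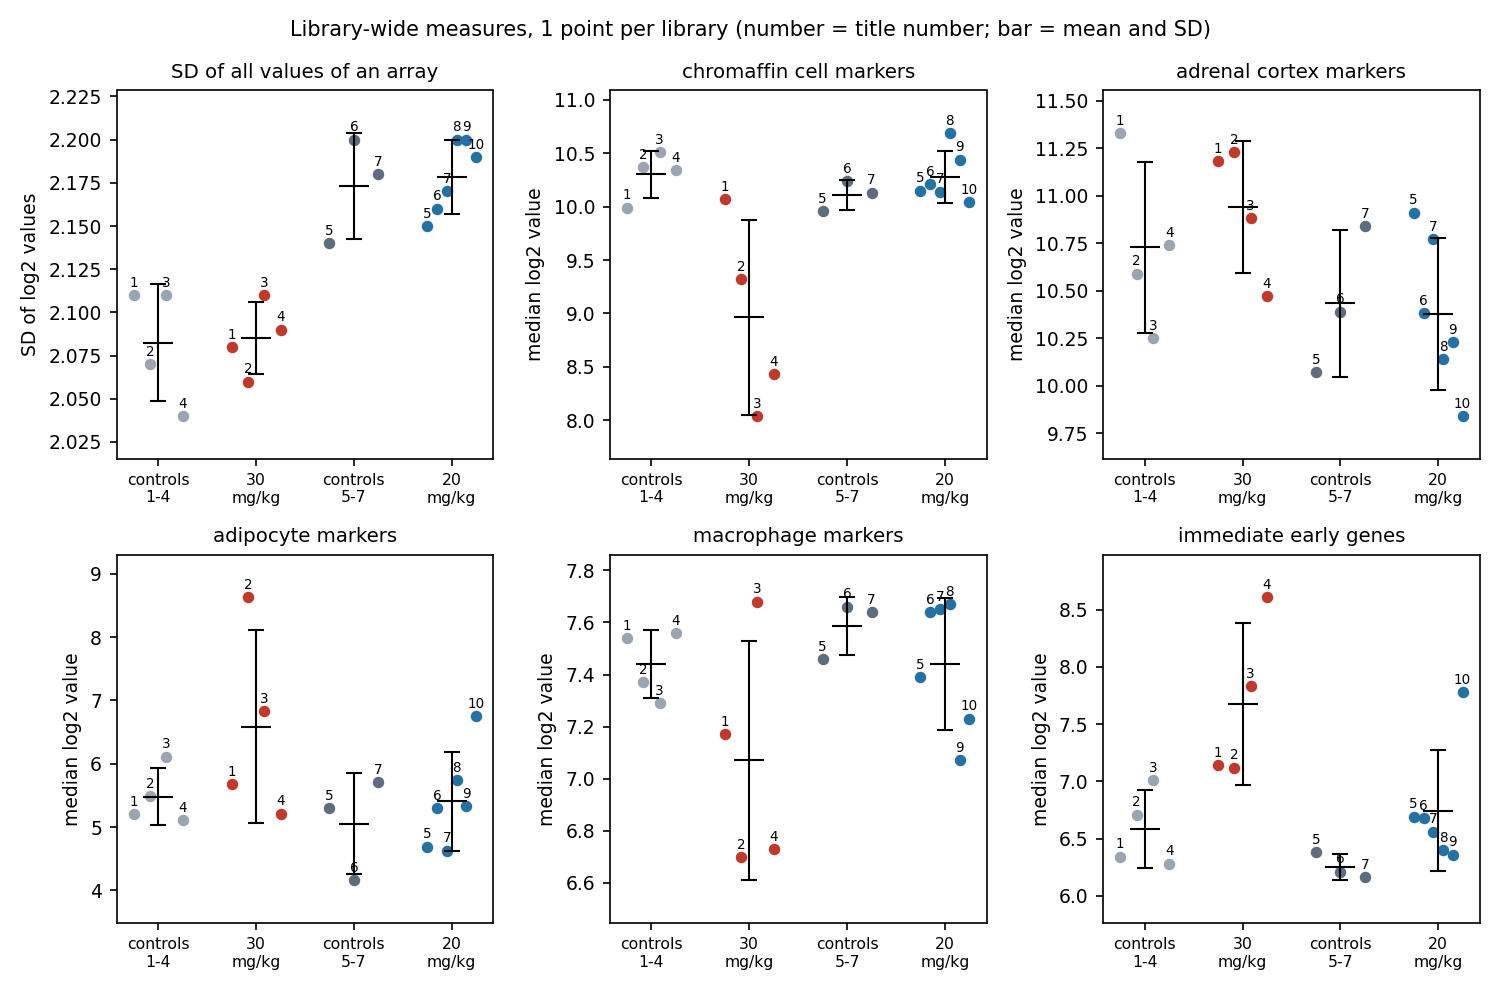
Library-wide measures in 4 sets of libraries, 1 point per library with its title number and the mean and SD of each set as bars; the first panel gives the SD of all log2 values of an array, and the others the median log2 value of a gene list. The array SD of both sets numbered 1 to 4 lay at or below 2.11 and that of both sets numbered 5 and up at or above 2.14. The chromaffin marker median of 30 mg/kg replicates 3 and 4 lay below that of all other libraries.

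Between the doses, 2649 of 14506 genes (18.3%) differed at an adjusted p below 0.05 in limma's fit with dose and sex as terms, with Benjamini-Hochberg adjustment over all genes. Of these, 921 (6.35%) were higher at 30 mg/kg and 1728 (11.9%) were lower. A difference of at least 2-fold was seen in 535 (3.69%), 134 higher and 401 lower. The 4 libraries at 30 mg/kg lay above all 6 at 20 mg/kg for 749 genes (5.16%) and below them for 1076 (7.42%). The excess of lower genes depended on scaling. When each array was centred on its median, 1953 genes were higher and 1383 lower, and the median difference of all genes went from 0.03 to 0.13. After quantile normalization 1131 were higher and 1186 lower. Differences also followed the level of a gene: the median difference was 0.11 in the lowest of 4 equal classes of genes by level and -0.185 in the highest, and between controls 1 to 4 and controls 5 to 7 these medians were 0.11 and -0.15. After quantile normalization the medians between doses were 0.014 and -0.05.

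The count ranged from 1508 to 3199 with 1 library left out, and a fit with fewer libraries also has less power. It was 3199 without replicate 1 at 30 mg/kg. It was 1508 without replicate 4 at 30 mg/kg, the only male there. At 20 mg/kg it was 1629 when replicate 6 was left out and 1703 when replicate 8 was. Without replicates 3 and 4 at 30 mg/kg it was 1331, of which 1008 were among the 2649. In female libraries alone it was 1349, of which 1212 were among the 2649. Of all genes, 404 were higher and 1104 lower without replicate 4 at 30 mg/kg. These numbers were 315 and 1016 without replicates 3 and 4, and 333 and 1016 in females. Counts of list members in these fits, given below, stand beside these numbers. With the array SD as a further covariate no gene passed, and 1493 had an unadjusted p below 0.05. The array SD of every 30 mg/kg library lay below that of every 20 mg/kg library. This fit can therefore hardly separate dose from array SD, and its count and changed signs allow no conclusion. With the median of the cortex markers as a covariate 107 genes passed, and with that of the chromaffin markers 431. The chromaffin marker median was 10.07, 9.32, 8.04 and 8.43 at 30 mg/kg against 10.04 to 10.69 at 20 mg/kg. It nearly separates the doses as well, so the fit with it allows no conclusion either. The cortex marker median also differed between doses but overlapped more (10.47 to 11.23 against 9.84 to 10.91).

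The controls differed between the title numbers too, mostly in the direction of the dose difference. With sex accounted for in a model of both doses and both control sets, 523 genes (3.61%) differed between controls 1 to 4 and controls 5 to 7, 134 (0.924%) higher and 389 (2.68%) lower in controls 1 to 4. This count depended on single libraries: it was 27 without control 5, the only female in its set, and between 183 and 254 without control 2, 6 or 7. It was 285, 311 and 218 without replicates 6, 7 and 10 at 20 mg/kg, which share the estimate of the sex difference. Of the genes called between doses, 345 were also called between control sets, which is 13% of the dose calls and 66% of the control calls, and 344 of them had the same direction. The control difference had the sign of the dose difference for 92.7% of the dose calls and for 74.8% of all genes. Across genes the fitted differences correlated at r = 0.646, and plain means of female libraries at r = 0.544. Genes are not independent replicates, the fitted values share the sex term, and no test was made of these correlations. Over the dose calls the control difference had a median of 0.647 of the size of the dose difference.

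Taking the control difference off the dose difference left 0 genes past an adjusted p of 0.05 in limma, and 971 had an unadjusted p below 0.05. The smallest adjusted p was 0.148. The count was 8 without replicate 1 and 4 without replicate 2 at 30 mg/kg, and 1 without replicate 10 at 20 mg/kg. This contrast rests on 4 group means and has a median standard error of 0.246, against 0.137 for the dose difference itself. The gene with the smallest p was Ctsl, a lysosomal cathepsin, named after its values were seen. Its values were 9.40 to 9.75 at 30 mg/kg and 9.15 to 9.43 at 20 mg/kg, but 8.51 to 8.73 in controls 1 to 4 and 9.17 to 9.29 in controls 5 to 7. The control difference thus ran against the dose difference, and the latter beyond the former was 0.97 (95% interval 0.644 to 1.295). Every difference below is between libraries of the doses and carries this limit.

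**Figure D2:**
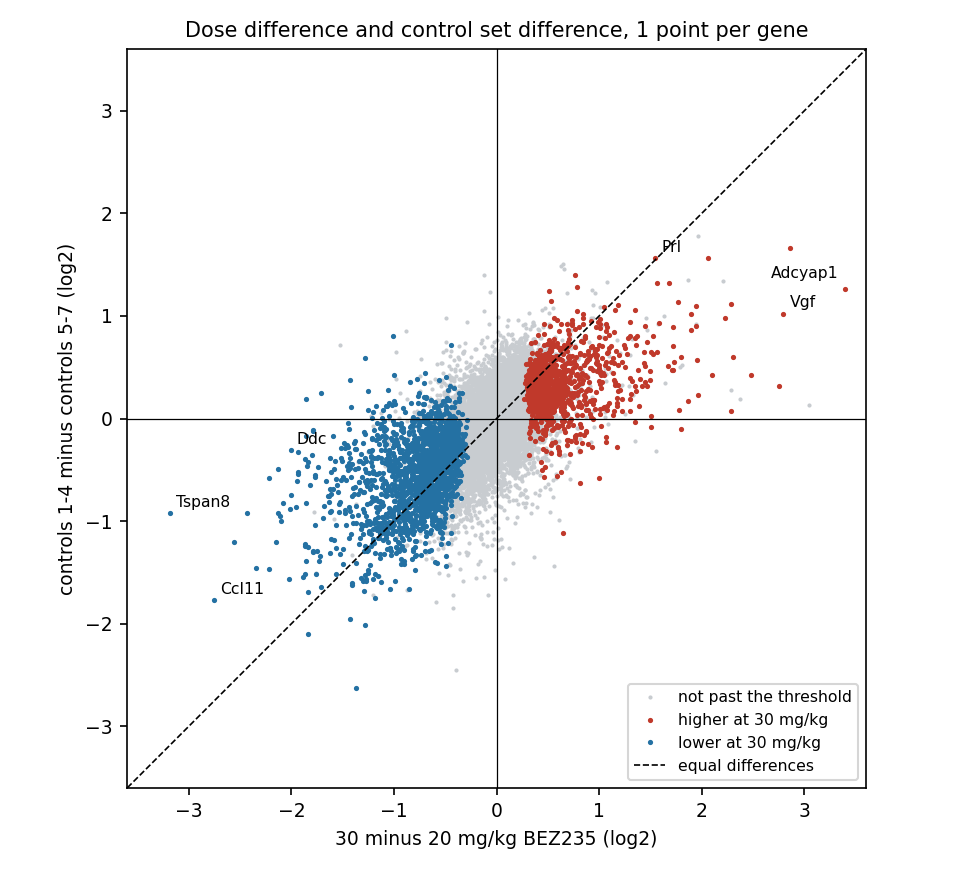
Difference between the doses (horizontal axis, log2) against the difference between controls 1 to 4 and controls 5 to 7 (vertical axis, log2), 1 point per gene for 14506 genes, with genes past the threshold between doses in color and the line of equal differences dashed. Most colored points lie in the quadrants where both differences have the same sign (92.7%), and for Adcyap1, Vgf and Tspan8 the control difference (1.26, 1.02 and -0.92) was smaller than the dose difference (3.40, 2.79 and -3.19).

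Genes of neuropeptides and of the secretory pathway held the largest differences upward. Of 21 measured granin, neuropeptide and prohormone processing genes, 7 were higher (against 6.35% of all genes) and 2 lower (against 11.9%) at 30 mg/kg. This list, like the others, was chosen with earlier results of these data known, so such shares describe and do not test. The median difference was 1.0 against 0.03 over all genes. The same median was 0.13 between the control sets. Vgf, a granin-like precursor that neuroendocrine cells store and release, read 7.67, 8.79, 10.89 and 10.81 in replicates 1 to 4 at 30 mg/kg. It read 6.20, 6.27, 6.36, 5.72, 7.45 and 9.53 in replicates 5 to 10 at 20 mg/kg. The 2 lowest libraries at 30 mg/kg lay below replicate 10 at 20 mg/kg, so the groups overlapped. The fitted difference for Vgf was 2.79 (SE 0.56, a 6.94-fold difference, limma adjusted p = 0.00847), and the control sets differed by 1.02 (adjusted p = 0.457).

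Agrp, the agouti-related antagonist of melanocortin receptors, read 7.99, 9.38, 9.65 and 10.24 at 30 mg/kg. At 20 mg/kg it read 5.59, 6.11, 6.22, 5.83, 6.66 and 9.95. All but replicate 10 of the lower dose lay below the higher dose. The difference was 2.75 (SE 0.56, 6.73-fold, limma adjusted p = 0.00865). In the controls Agrp lay between 5.67 and 6.30, with 1 library, control 6, at 8.67.

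Adcyap1, which encodes the neuropeptide PACAP, split the higher dose. It read 5.41 and 5.59 in replicates 1 and 2 and 11.34 and 10.52 in replicates 3 and 4 at 30 mg/kg, against 3.92 to 4.95 in replicates 5 to 9 and 7.88 in replicate 10 at 20 mg/kg. The fitted difference was 3.40 (SE 1.06, 10.5-fold, limma adjusted p = 0.0487), the largest upward of all genes, and the controls read 3.88 to 4.79. Leaving out replicate 3 or 4 at 30 mg/kg, or any of replicates 5 to 9 at 20 mg/kg, took the adjusted p of Adcyap1 to between 0.068 and 0.16. With the chromaffin marker median, which nearly separates the doses, as a covariate its difference was -0.60, which allows no conclusion. Ucn2, a peptide of the corticotropin-releasing hormone family, had the same shape, at 6.81, 8.42, 10.95 and 10.86 at 30 mg/kg and 5.11 to 6.5 in replicates 5 to 9 and 9.92 in replicate 10 at 20 mg/kg. Its difference was 2.86 (SE 0.90, limma adjusted p = 0.0492). It did not pass without any 1 of replicates 2 to 4 at 30 mg/kg or 5 to 9 at 20 mg/kg (adjusted p 0.053 to 0.15).

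Npy, abundant in chromaffin cells, was higher by 1.0 (limma adjusted p = 0.0193), with 11.92 to 12.85 at 30 mg/kg and 10.98 to 12.30 at 20 mg/kg. Sst, the gene of somatostatin, was higher by 1.08 (adjusted p = 0.0134), at 4.69 to 6.43 against 4.22 to 4.69. Cpe, a carboxypeptidase that trims prohormones, was higher by 0.56 (adjusted p = 0.021). Without replicate 4 at 30 mg/kg the adjusted p was 0.066 for Npy and for Sst and 0.079 for Cpe, and for Cpe it was 0.052 without replicate 3. The genes of 2 partners of the prohormone convertases ran the other way. Pcsk1n, an inhibitor of the convertase PC1, read 7.75 to 8.61 at 30 mg/kg and 8.96 to 9.72 at 20 mg/kg, and fell by 1.22 (SE 0.16, adjusted p = 0.00166). Scg5, the chaperone of the convertase PC2, read 10.35 to 10.46 and 10.86 to 11.28, and fell by 0.72 (SE 0.11, adjusted p = 0.00252). For both, all 30 mg/kg libraries lay below all 20 mg/kg libraries, and both passed with each library left out. Without replicate 4 at 30 mg/kg, 2 list members were higher and 3 lower, and without replicates 3 and 4 together 1 was higher and 3 lower. Replicates 3 and 4 were also the lowest in the chromaffin marker median, whose part in these differences was not tested beyond the covariate above.

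The immediate early genes, which cells switch on within minutes of a stimulus, were higher at 30 mg/kg in 7 of 17 cases (41.2%, against 6.35% of all genes) and lower in 0, with a median difference of 0.67. The median between the control sets was 0.48. The count was 3 without replicate 4 at 30 mg/kg, where higher calls over all genes also fell, from 921 to 404. Replicate 10 at 20 mg/kg, high in these genes, was also high in the heat shock genes, whose part was not tested. Nr4a1, an orphan nuclear receptor of this class, read 8.92, 8.88, 9.33 and 9.5 at 30 mg/kg and 7.14, 7.51, 7.28, 6.69, 6.56 and 8.30 at 20 mg/kg. The doses did not overlap. The difference was 1.94 (SE 0.29, 3.84-fold, limma adjusted p = 0.00263), while controls 1 to 4 themselves spread from 6.14 to 8.96. Egr1, a zinc finger factor, read 9.98, 9.95, 10.80 and 11.49 at 30 mg/kg. At 20 mg/kg it read 7.63 to 8.52 in replicates 5 to 9 and 10.83 in replicate 10, above 3 of the 4 libraries of the higher dose. Its difference of 2.06 (SE 0.47, adjusted p = 0.015) did not pass without replicate 4 at 30 mg/kg (adjusted p = 0.057). Junb was higher by 1.77 (adjusted p = 0.00846) and Egr2 by 1.01 (adjusted p = 0.00359), and both passed with each library left out. Nr4a2, Fos and Srf were higher by 1.72, 1.24 and 0.57 (adjusted p = 0.0124, 0.026 and 0.024). Nr4a2 was at the threshold without replicate 4 at 30 mg/kg (adjusted p = 0.050). Fos did not pass without replicate 3 or 4 at 30 mg/kg or replicate 5 or 8 at 20 mg/kg, nor Srf without replicate 2 or 4 at 30 mg/kg or replicate 6 at 20 mg/kg (adjusted p 0.05 to 0.13).

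Phosphatases and inhibitors close down MAPK signalling. Of 12 measured MAPK feedback genes, 5 were higher (41.7%, against 6.35% of all genes) and 0 lower, with a median of 0.48 against 0.24 between the control sets. Only 2 were higher without replicate 4 at 30 mg/kg, or in females alone. Higher calls over all genes also fell, from 921 to 404 and 333. Dusp4, a nuclear phosphatase of ERK, read 6.33, 6.06, 6.79 and 7.56 at 30 mg/kg and 4.97 to 5.61 at 20 mg/kg, with no overlap, a difference of 1.37 (SE 0.27, limma adjusted p = 0.00746). Spry4, a Sprouty inhibitor of receptor signalling, read 6.20 to 6.87 and 5.66 to 6.05, a difference of 0.68 (SE 0.14, adjusted p = 0.0104). Dusp1 was higher by 1.35 (adjusted p = 0.035), carried by 8.86 and 10.09 in replicates 3 and 4, and replicate 10 at 20 mg/kg read 8.99. Its adjusted p was 0.054 to 0.15 without replicate 3 or 4 at 30 mg/kg or any of replicates 5 to 8 at 20 mg/kg. Spry1 was higher by 0.73 (adjusted p = 0.0191, and 0.094 without replicate 4 at 30 mg/kg). Dusp5, another phosphatase of ERK, was higher by 1.01 (adjusted p = 0.0388), and did not pass without replicate 3 or 4 at 30 mg/kg or replicate 5, 6, 8, 9 or 10 at 20 mg/kg (adjusted p 0.056 to 0.18).

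A full cyclic AMP response element, the palindrome TGACGTCA, was looked for in the promoters of these genes, because Vgf, Sst and several immediate early genes are textbook targets of CREB. RefSeq promoters on GRCr8, which run from 250 bases before to 50 after the start, were found for 11950 of the 14506 genes. The windows below are shown with the element in capitals, on the strand of the gene, for the named higher genes in which the whole window lies before the start.
Vgf, chr12:25277073-25277140, minus strand: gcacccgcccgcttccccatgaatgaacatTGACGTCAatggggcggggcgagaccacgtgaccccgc
Dusp1, chr10:17184699-17184766, plus strand: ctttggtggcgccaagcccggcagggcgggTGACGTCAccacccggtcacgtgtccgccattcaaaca
Flt1, chr12:12333276-12333343, plus strand: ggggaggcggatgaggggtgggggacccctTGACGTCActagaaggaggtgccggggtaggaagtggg
The element begins 90 bases before the annotated start of Vgf and 124 bases before those of Dusp1 and of Flt1, and Sst has it 2 bases past its annotated start. Among promoters of the genes higher at 30 mg/kg 3.42% held it (25 of 732), against 3.39% of the lower genes (49 of 1446) and 2.46% of all (294 of 11950). The higher and the lower genes thus held it at nearly the same share. Among genes above the median level it was in 3.27% of the lower genes and 3.37% of those that did not pass. The element was not in the promoters of Egr1, Egr2, Nr4a1, Nr4a2, Junb or Srf. It was also not in those of Adcyap1, Ucn2, Agrp, Npy, Cpe, Spry1, Spry4 or Dusp5. For Fos and Dusp4 no promoter sequence was found. Th, which did not pass, and RT1-Ba, which was lower, also hold it.

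**Figure D3:**
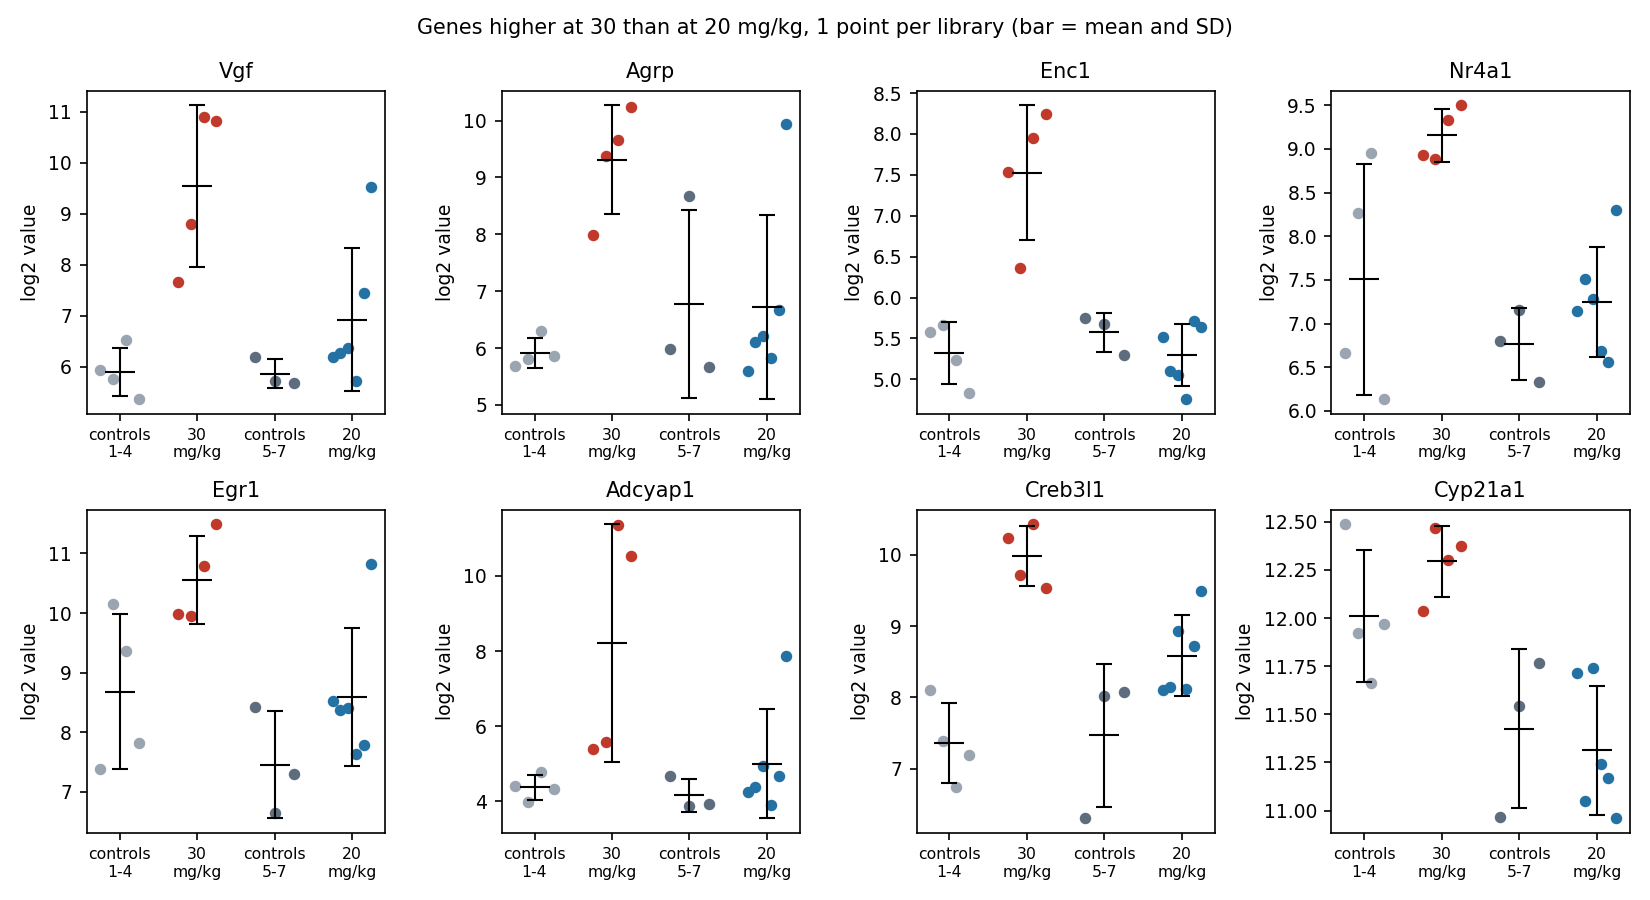
Log2 values of 8 genes higher at 30 mg/kg, 1 point per library in title order, with the mean and SD of each set as bars. Nr4a1, Enc1, Creb3l1 and Cyp21a1 do not overlap between the doses, and Adcyap1 is high in 2 of 4 libraries at 30 mg/kg. Replicate 10, the last point at 20 mg/kg, reaches the range of the higher dose for Vgf, Agrp, Egr1 and Adcyap1.

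Outside these lists, Enc1, an actin-binding adaptor of neurons, showed a difference that the controls did not share. It read 7.54, 6.37, 7.95 and 8.25 at 30 mg/kg and 4.76 to 5.71 at 20 mg/kg, a difference of 2.29 (SE 0.27, 4.88-fold, limma adjusted p = 0.00105). In the controls it lay between 4.83 and 5.75 (control set difference 0.07, adjusted p = 0.933). The difference of Enc1 beyond that of the controls was 2.20 (95% interval 1.25 to 3.15, adjusted p = 0.491). Lynx1, a brake on nicotinic acetylcholine receptors, read 9.56, 11.38, 11.39 and 11.31 at 30 mg/kg and 7.35 to 9.08 at 20 mg/kg. Its difference was 2.48 (SE 0.42, adjusted p = 0.00414), though control 1 alone read 10.52. Osmr, the oncostatin M receptor, was higher by 1.90 (adjusted p = 0.00774). Gpat3, an enzyme of triglyceride synthesis named after its values were seen, read 6.02 to 6.87 and 4.33 to 5.10, a difference of 1.86 (SE 0.18, adjusted p = 0.000548), and 3.90 to 5.06 in the controls.

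Creb3l1, a membrane-bound factor of the secretory pathway, and the phosphodiesterase Pde10a read lowest in the controls and highest at 30 mg/kg. Creb3l1 read 9.53 to 10.42 at 30 mg/kg, 8.10 to 9.49 at 20 mg/kg and 6.31 to 8.11 in the controls. Its difference between doses was 1.42 (SE 0.29, limma adjusted p = 0.00865). Pde10a read 8.13 to 8.43, 6.34 to 8.19 and 5.02 to 7.16 in the same order, a difference between doses of 1.20 (SE 0.26, adjusted p = 0.0126). Against all controls, in a fit of 3 groups, Pde10a was higher by 2.32 at 30 mg/kg and by 1.11 at 20 mg/kg (limma adjusted p = 0.000102 and 0.0244). Creb3l1 was higher by 2.59 at 30 mg/kg (adjusted p = 0.000226) and differed by 1.15 at 20 mg/kg (adjusted p = 0.0534). Both comparisons use the same controls, pool both control sets and do not separate dose from title number.

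Other large differences upward lost the call when single libraries were left out: Lcn2, an iron-binding acute phase protein (2.30), Dio2, which activates thyroid hormone (2.29), Fst, the activin antagonist (2.10), the chemokine gene Ccl3 (1.96), Mmd (1.95) and Calca, the gene of calcitonin and its related peptide (1.94). With all libraries Lcn2, Fst and Mmd were already near the threshold (limma adjusted p = 0.0418, 0.0476 and 0.0471). Fst, for example, read 5.60, 4.78, 9.0 and 7.62 at 30 mg/kg and 4.38 to 4.92 at 20 mg/kg. Dio2 did not pass without replicate 4 at 30 mg/kg (limma adjusted p = 0.10). For Calca 7 of the 10 libraries, and for each of Lcn2, Fst, Ccl3 and Mmd 8 of them, ended the call when left out singly. In each case these included replicates 3 and 4 at 30 mg/kg and 5 to 8 at 20 mg/kg, with an adjusted p of 0.051 to 0.22. With the chromaffin marker median as a covariate the differences of Lcn2, Fst and Mmd turned to -0.38, -0.094 and -0.185. That median nearly separates the doses, so these turns allow no conclusion.

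Of the marker lists of other cell types, those of the cortex (35.7%), endothelium (36.4%), adipocytes (40%) and macrophages (33.3%) had shares of members past the threshold above the 18.3% of all genes. The shares were 10% to 16.7%, 1 or 2 members each, for lymphocytes, sustentacular and Schwann cells, hepatocytes, erythroid cells, and fibroblasts and pericytes. No skeletal muscle marker of 9 passed in limma, and 2 had an unadjusted p below 0.05. In bulk tissue, fewer cells of a type and less RNA per cell cannot be told apart. Of 14 measured cortex markers, 4 were higher (against 6.35% of all genes) and 1 lower (against 11.9%), with a median of 0.38 against 0.13 between the control sets. Cyp21a1, the steroid 21-hydroxylase, read 12.04, 12.47, 12.30 and 12.38 at 30 mg/kg and 10.96 to 11.74 at 20 mg/kg, without overlap, a difference of 0.97 (SE 0.17, limma adjusted p = 0.00459). The controls ran from 10.96 in control 5 to 12.49 in control 1, which spans both doses. Mrap, which carries the corticotropin receptor to the cell surface, read 11.46 to 11.73 and 10.05 to 11.21, a difference of 1.18 (SE 0.21, adjusted p = 0.00477). Mc2r, the receptor itself, was higher by 1.02 (adjusted p = 0.0198), and Por, which feeds electrons to the steroid hydroxylases, by 0.47 (adjusted p = 0.0126). Mc2r and Por did not pass without replicate 4 at 30 mg/kg (adjusted p = 0.098 and 0.060). Star and Cyp11a1 did not pass, with differences of 0.32 (95% interval 0.09 to 0.54, adjusted p = 0.0523) and 0.29 (0.03 to 0.54, adjusted p = 0.104). Cyp11b1 and Cyp11b2, the last enzymes of corticosterone and aldosterone synthesis, had intervals of -0.83 to 0.28 and -0.37 to 1.51. Fdx2, a ferredoxin of iron-sulfur cluster assembly, fell by 0.53 (adjusted p = 0.00863), and the control sets differed by -0.54 (adjusted p = 0.113). Without replicates 3 and 4 at 30 mg/kg, 0 cortex markers were higher and 1 was lower. After quantile normalization 7 were higher, and with median centring 8.

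Of 11 endothelial markers, 4 were higher (against 6.35% of all genes) and 0 lower (against 11.9%). The medians were 0.47 between doses and 0.26 between control sets, and 2 were higher without replicates 3 and 4 at 30 mg/kg. Eng, the endothelial co-receptor of TGF-beta, read 9.46, 9.55, 10.33 and 10.04 at 30 mg/kg and 8.19 to 9.08 at 20 mg/kg, a difference of 1.3 (SE 0.19, limma adjusted p = 0.00235). It was also higher by 0.94 in controls 1 to 4 (adjusted p = 0.0303). Cdh5, the cadherin of endothelial junctions, was higher by 0.69 (adjusted p = 0.00602) and Flt1, a VEGF receptor, by 0.60 (adjusted p = 0.0107). Of 10 adipocyte markers, 3 were higher (against 6.35% of all genes) and 1 lower (against 11.9%). The medians were 0.86 between doses and 0.30 between control sets, and 1 to 4 were higher with single libraries left out. Pparg, the master regulator of fat cells, was higher by 0.82 (adjusted p = 0.0191), at 4.34 to 5.45 against 3.64 to 4.06. Cidec, a lipid droplet protein, was higher by 1.90 (adjusted p = 0.0485), with 9.10 in replicate 2, and did not pass without replicate 2 or 3 at 30 mg/kg or any of replicates 5 to 9 at 20 mg/kg (adjusted p 0.076 to 0.10). Cfd, adipsin, fell by 1.20 (adjusted p = 0.0114, and 0.060 without replicate 4 at 30 mg/kg).

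Among the chromaffin markers 3 of 12 (25%) were lower at 30 mg/kg, against 11.9% of all genes, and 0 higher. Ddc, the decarboxylase that makes dopamine, read 10.17, 9.04, 7.83 and 8.49 at 30 mg/kg. At 20 mg/kg it read 10.68, 10.71, 10.76, 11.12, 11.33 and 10.72. All libraries of the higher dose lay below all of the lower dose, replicate 3 by the most. Ddc fell by 2.01 (SE 0.37, 4.02-fold lower, limma adjusted p = 0.00561). The control sets differed by -0.30 (adjusted p = 0.721), and the difference beyond theirs was -1.70 (95% interval -2.81 to -0.58, adjusted p = 0.64). Hand2, a transcription factor of sympathetic lineage cells, read 7.30 to 8.57 and 9.05 to 10.12, and fell by 1.46 (SE 0.25, adjusted p = 0.00429). Slc6a2, the noradrenaline transporter, read 6.31 to 7.43 and 7.60 to 8.91, and fell by 1.29 (SE 0.30, adjusted p = 0.0153). In the controls Slc6a2 read 8.67 to 9.80. The first and last enzymes of noradrenaline synthesis did not follow. Th differed by 0.19 (95% interval -0.09 to 0.46, adjusted p = 0.307) and Dbh by 0.31 (0.05 to 0.57, adjusted p = 0.0942). Dbh passed, as higher, without replicate 8 at 20 mg/kg (adjusted p = 0.045). The median of the list was -0.22, and 0.01 without replicate 4 at 30 mg/kg, with 3 members lower in either case. Without replicates 3 and 4 it was 0.14, with 2 lower.

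The largest difference downward was in Tspan8, a tetraspanin of secretory epithelia and tumors. It read 6.43, 4.60, 5.51 and 5.18 at 30 mg/kg. It read 7.01, 8.11, 8.68, 9.11, 10.27 and 8.87 at 20 mg/kg. The doses did not overlap, and Tspan8 fell by 3.19 (SE 0.51, 9.10-fold lower, limma adjusted p = 0.00319). Controls ran from 4.93 in control 1 to 9.91 in control 7, so a low level was also seen without the drug. Tm4sf4, another membrane protein with 4 passes, read 5.45 to 7.18 and 7.56 to 9.75, and fell by 2.43 (SE 0.42, adjusted p = 0.0045). Lix1 fell by 2.56 (adjusted p = 0.00937), from 5.78 to 8.77 at 20 mg/kg to 3.87 to 5.74.

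Prph and Stmn1, of the cytoskeleton, were among the largest differences downward. Prph, peripherin, an intermediate filament of peripheral neurons and chromaffin cells, read 7.06, 5.75, 5.43 and 5.56 at 30 mg/kg and 7.73 to 8.72 at 20 mg/kg, and fell by 2.22 (SE 0.31, limma adjusted p = 0.00224). Stmn1, stathmin, which takes microtubules apart, read 6.98 to 9.12 and 9.43 to 10.48, and fell by 2.10 (SE 0.36, adjusted p = 0.00438). Of 15 voltage-gated ion channel genes, 7 were lower (46.7%, against 11.9% of all genes) and 0 higher, with medians of -0.53 between doses and -0.24 between control sets. Without replicate 4 at 30 mg/kg 2 were lower, after quantile normalization 3, and with median centring 4. Kcnmb2, a subunit that inactivates the large-conductance potassium channel, read 8.00, 7.32, 6.84 and 5.96 at 30 mg/kg and 9.44, 9.44, 9.17, 9.91, 8.88 and 7.45 at 20 mg/kg. Replicate 10 at 20 mg/kg was the only library of its dose within the range of the higher dose. Kcnmb2 fell by 2.13 (SE 0.29, adjusted p = 0.00196). Trpc5, a cation channel, fell by 2.11 (SE 0.32, adjusted p = 0.00263), at 4.54 to 6.63 against 6.82 to 8.07.

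Of the other large differences downward, Fam110b fell by 2.15 (limma adjusted p = 0.00181) and Ift70b, a component of the transport machinery of cilia, by 2.02 (adjusted p = 0.00299). Ift70b also fell by 1.56 between the control sets (adjusted p = 0.0338). Eaf2, an elongation factor partner, fell by 2.35 (adjusted p = 0.00294) and Apoc1, an apolipoprotein, by 2.13 (adjusted p = 0.00856). Ccl11, the eosinophil attractant eotaxin, read 8.34, 6.18, 4.61 and 4.65 at 30 mg/kg, 5.42 to 10.56 at 20 mg/kg and 10.05 to 11.40 in the controls. It fell by 2.75 between doses (SE 0.67, adjusted p = 0.0194) and by 4.76 at 30 mg/kg against all controls (adjusted p = 0.00049), from which 20 mg/kg differed by -2.09 (adjusted p = 0.078). Agtr2, the type 2 angiotensin receptor, read 8.02, 7.93, 4.60 and 4.62 at 30 mg/kg and 5.86 to 9.36 at 20 mg/kg, and fell by 2.22 (adjusted p = 0.0303). It did not pass without replicate 4 at 30 mg/kg or any of replicates 5 to 9 at 20 mg/kg (adjusted p 0.054 to 0.088). Cox4i2, the lung-type isoform of a cytochrome oxidase subunit, fell by 2.02 (adjusted p = 0.0183). It read 11.26 to 11.70 in the males and 7.48 to 8.79 in the females at 20 mg/kg, and 7.98 in the male at 30 mg/kg, and it did not pass without that library (adjusted p = 0.090). With the array SD, which separates the doses, as a covariate its difference was 0.70.

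Class II antigen presentation genes were lower at 30 mg/kg in 6 of 8 cases (75%, against 11.9% of all genes), with medians of -0.79 between doses and -0.29 between control sets. These proteins display peptides on macrophages, dendritic cells and B cells. RT1-Da, a class II alpha chain, read 7.62, 6.64, 6.56 and 6.79 at 30 mg/kg. It read 9.45, 9.29, 9.30, 9.43, 8.57 and 7.35 at 20 mg/kg, and 9.22 to 10.19 in the controls. Only replicate 10 of the lower dose came within the range of the higher dose. RT1-Da fell by 2.08 (SE 0.30, 4.23-fold lower, limma adjusted p = 0.00243). RT1-Ba fell by 1.10 (adjusted p = 0.021), Cd74, the invariant chain, by 1.21 (adjusted p = 0.0342), RT1-Bb by 0.88 (adjusted p = 0.0441) and RT1-Db1 by 0.69 (adjusted p = 0.0207). RT1-Da and RT1-Ba passed with each library left out. RT1-Db1 did not pass without replicate 3 at 30 mg/kg (adjusted p = 0.052), and Cd74 and RT1-Bb did not pass without any 1 of replicates 2 to 4 at 30 mg/kg or 5 to 9 at 20 mg/kg (adjusted p 0.052 to 0.11). Without replicate 4 at 30 mg/kg 3 list members were lower, and after quantile normalization 3. The 6th member that passed was RT1-DMb.

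Macrophage markers were lower in 4 of 12 cases (33.3%, against 11.9% of all genes) and higher in 0, with a median of -0.39. Without replicate 4 at 30 mg/kg 2 were lower. The median of the list per library was 7.17, 6.70, 7.68 and 6.73 at 30 mg/kg and 7.07 to 7.67 at 20 mg/kg. C1qa, a chain of the first complement component, read 6.94, 7.09, 8.07 and 6.67 at 30 mg/kg and 8.08 to 8.63 at 20 mg/kg, and fell by 1.17 (SE 0.21, limma adjusted p = 0.00487). The control sets differed in C1qa by -1.06 (adjusted p = 0.0517). Aif1, a macrophage actin-binding protein, fell by 1.13 between doses (adjusted p = 0.0066) and fell by 1.59 between control sets (adjusted p = 0.00667). C1qb and Cd163 fell by 0.61 and 1.05 (adjusted p = 0.0252 and 0.0179). Cd163 did not pass without replicate 4 at 30 mg/kg (adjusted p = 0.082), nor C1qb without replicate 2 or 4 at 30 mg/kg or replicate 6, 7 or 8 at 20 mg/kg (adjusted p 0.050 to 0.074). With the array SD, which separates the doses, as a covariate the differences of C1qb and Cd163 were 0.37 and 0.38. Cd4, the only lymphocyte marker of 10 that passed, is carried by T helper cells and rat macrophages. It read 4.74 to 5.33 and 5.95 to 6.26, and fell by 1.17 (SE 0.13, adjusted p = 0.000951).

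**Figure D4:**
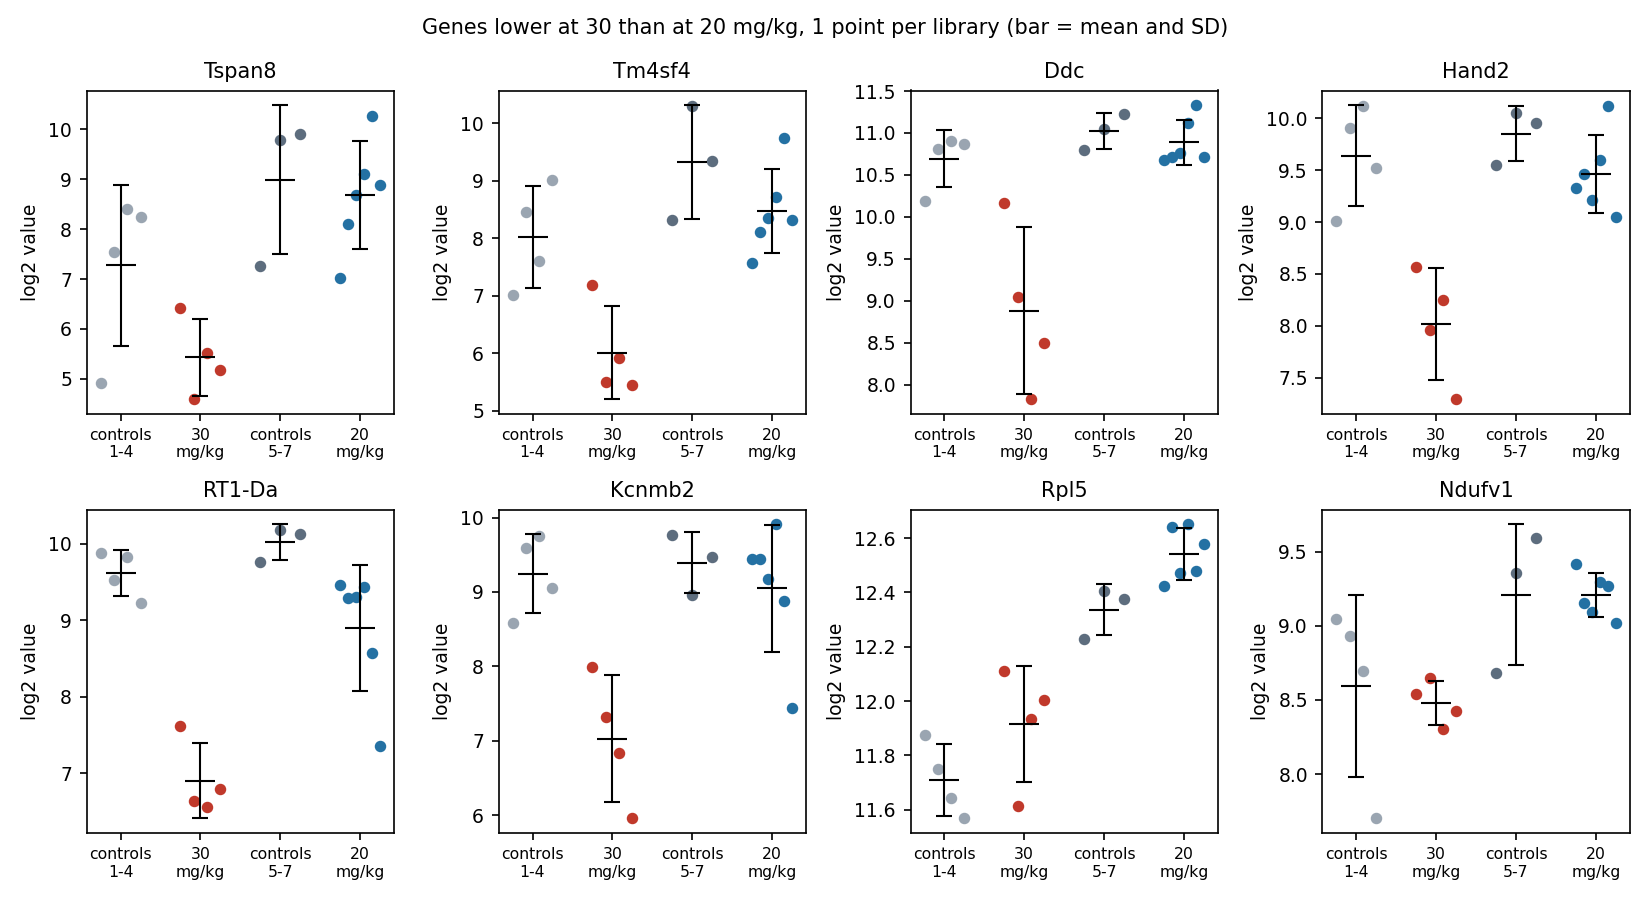
Log2 values of 8 genes lower at 30 mg/kg, 1 point per library in title order, with the mean and SD of each set as bars. Tspan8, Tm4sf4, Ddc, Hand2, Rpl5 and Ndufv1 do not overlap between the doses, and for Rpl5 the controls 1 to 4 lie below controls 5 to 7 as the 30 mg/kg libraries lie below the 20 mg/kg libraries.

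Ribosomal protein genes were lower at 30 mg/kg in 12 of 25 cases (48.0%, against 11.9% of all genes) and higher in 0, with a median of -0.32. In 16 of the 25 all 30 mg/kg libraries lay below all 20 mg/kg libraries, as did 7.42% of all genes. The median between the control sets was -0.15, with 1 member past the threshold. Rpl5, of the large subunit, read 12.11, 11.61, 11.93 and 12.00 at 30 mg/kg and 12.42 to 12.65 at 20 mg/kg, and fell by 0.62 (SE 0.12, limma adjusted p = 0.00589). Controls 1 to 4 read 11.57 to 11.87 and controls 5 to 7 read 12.23 to 12.40, a difference of -0.59 (adjusted p = 0.0366). What was left beyond the controls was -0.04 (95% interval -0.41 to 0.34). Rps4x, of the small subunit, fell by 0.48 (SE 0.09, adjusted p = 0.00457) between doses, and the control sets differed by -0.26 (adjusted p = 0.237). Without replicate 4 at 30 mg/kg, or in females alone, 2 ribosomal protein genes were lower, after quantile normalization 5, and with median centring 6. Over all 14506 genes 1104, 1016, 1186 and 1383 were lower in these fits, in that order. Without replicate 4 and in females the share of the list was thus close to that of all genes.

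Subunits of the respiratory chain were lower as well. Of 23 measured, 9 were lower (39.1%, against 11.9% of all genes) and 0 higher between doses (median -0.29), and 4 were lower between control sets (median -0.48). Cox6c, a subunit of cytochrome oxidase, fell by 0.57 between doses (SE 0.09, limma adjusted p = 0.00317) and by 0.70 between control sets (adjusted p = 0.018). Cox4i1, the common isoform of another subunit, fell by 0.59 and 0.49 (adjusted p = 0.00456 and 0.0462). Ndufv1, of complex I, read 8.30 to 8.65 at 30 mg/kg and 9.02 to 9.42 at 20 mg/kg and fell by 0.74 (SE 0.11, adjusted p = 0.00267), with a control difference of -0.53 (adjusted p = 0.32).

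The motif CCGGAAG, a core of ETS-family sites that is common in promoters of housekeeping genes, was counted on both strands of the same promoters. It was in 20.5% of promoters of the lower genes (296 of 1446), 10.9% of those of the higher genes (80 of 732) and 13.0% of all. Among genes above the median level it was in 21.4% of the lower genes and 20.0% of those that did not pass, shares that lie close together. The windows of 2 named lower genes are shown with the motif, or its reverse complement, in capitals, on the strand of the gene.
Fdx2, chr8:27886064-27886130, minus strand: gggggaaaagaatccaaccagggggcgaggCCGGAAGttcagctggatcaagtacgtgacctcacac
Bcl2l11, chr3:135819930-135819996, plus strand: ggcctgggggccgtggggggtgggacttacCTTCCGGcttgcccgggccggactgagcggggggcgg
In Fdx2 the motif begins 93 bases before the annotated start, and in Bcl2l11 82 bases before it.

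Glucose use and hypoxia genes split. Of 21 measured, 8 passed (38.1%, against 18.3% of all genes), 3 as higher and 5 as lower. The median was 0.14 in both comparisons. Slc2a3, the high-affinity glucose transporter of neurons, read 6.99, 6.05, 6.59 and 6.59 at 30 mg/kg and 8.01 to 8.80 at 20 mg/kg. It fell by 1.79 (SE 0.20, 3.45-fold lower, limma adjusted p = 0.000951) and differed by -0.11 between control sets (adjusted p = 0.887). Gapdh, the glycolytic enzyme, read 12.98 to 13.19 and 12.28 to 12.49, higher by 0.66 (SE 0.09, adjusted p = 0.00224), and all 15 of its other probe sets had means higher at 30 mg/kg. The control sets differed by 0.44 in Gapdh (adjusted p = 0.0536). Pgk1 fell by 0.71 (adjusted p = 0.00578). Ankrd37, a target of hypoxia-inducible factors, fell by 1.29 between doses (adjusted p = 0.00243) and by 1.69 between control sets (adjusted p = 0.00573). Adm, adrenomedullin, fell by 1.14 (adjusted p = 0.0158, and 0.079 without replicate 4 at 30 mg/kg).

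Clock and glucocorticoid genes split. Of 15 measured, 6 passed (40%, against 18.3% of all genes), 4 as lower and 2 as higher. The median was -0.31 between doses and -0.06 between control sets. Dbp, an output factor of the clock, read 7.48 to 8.11 at 30 mg/kg and 8.19 to 9.42 at 20 mg/kg, and fell by 1.33 (SE 0.21, limma adjusted p = 0.00292). Its relative Tef fell by 1.24 (adjusted p = 0.00679). Bmal1, whose rhythm runs against that of Dbp, was higher by 0.91 (adjusted p = 0.0333), and Per1 by 0.51 (adjusted p = 0.0136). Tsc22d3 and Fkbp5, which glucocorticoids induce, fell by 0.93 and 0.70 (adjusted p = 0.0066 and 0.0361). The time of day of sampling is not in the labels. Per1 did not pass without replicate 4 at 30 mg/kg (adjusted p = 0.062), Bmal1 without replicate 2 or 3 at 30 mg/kg or any of replicates 5 to 9 at 20 mg/kg (0.053 to 0.077), and Fkbp5 without any 1 of replicates 2 to 4 at 30 mg/kg or 6 to 9 at 20 mg/kg (0.060 to 0.11).

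Of 19 measured PI3K, AKT and mTOR components, which make up the drug's own pathway, 2 were lower (10.5%, against 11.9% of all genes) and 0 higher, with a median of 0.06. Pik3r3, a regulatory subunit of PI3K, read 7.22, 5.72, 5.99 and 6.46 at 30 mg/kg and 7.30 to 8.19 at 20 mg/kg, and fell by 1.34 (SE 0.28, limma adjusted p = 0.00955). Pik3cd, the catalytic subunit of blood cells, read 5.81 to 6.18 and 6.35 to 7.09, and fell by 0.65 (SE 0.12, adjusted p = 0.00512). Pik3r1, the main regulatory subunit, did not pass, with a difference of -0.34 (95% interval -0.68 to -0.01, adjusted p = 0.133).

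Among 20 FOXO targets and feedback genes 5 passed (25%, against 18.3% of all genes), 1 as higher and 4 as lower. Leaving out replicate 4 at 30 mg/kg left 2 lower, and after quantile normalization 3 were higher. Pdk4, which spares glucose by blocking pyruvate dehydrogenase, read 8.57, 9.22, 9.10 and 8.44 at 30 mg/kg and 6.78 to 7.53 in replicates 5 to 9 and 8.86 in replicate 10 at 20 mg/kg. It was higher by 1.45 (SE 0.33, limma adjusted p = 0.014). Ccng2 fell by 1.03 (adjusted p = 0.00531), Sesn1 by 0.94 (adjusted p = 0.0208), Pik3ip1, an inhibitor of PI3K, by 1.28 (adjusted p = 0.0307) and Bcl2l11, the death protein BIM, by 0.47 (adjusted p = 0.0219). Ccng2 passed with each library left out. Sesn1 did not pass without replicate 4 at 30 mg/kg (adjusted p = 0.088), Pik3ip1 without any 1 of replicates 2 to 4 at 30 mg/kg or 6 and 8 at 20 mg/kg (0.055 to 0.14), and Bcl2l11 without replicate 3 at 30 mg/kg or 8 at 20 mg/kg (0.051 and 0.052). Insr, the insulin receptor, differed by 0.10 (95% interval -0.29 to 0.49, adjusted p = 0.707).

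Of 23 measured mitosis genes, 0 passed between the doses in limma's fit and 4 had an unadjusted p below 0.05, with a median of -0.01, while 4 were lower in controls 1 to 4 than in controls 5 to 7 (median -0.42). After quantile normalization 1 was lower, with median centring 1 was higher, and with single libraries left out up to 3 were lower. The list median per library was 3.89 to 3.98 at 30 mg/kg and 3.98 to 4.11 at 20 mg/kg. These lie within the mean levels of the lowest of 4 equal classes of genes (2.739 to 4.127). The lack of a dose difference at so low a level says little. Top2a, the topoisomerase of dividing cells, read 3.54 to 4.01 at 30 mg/kg, 3.67 to 3.98 at 20 mg/kg and 4.23 to 6.99 in the controls, and the doses differed by 0.05 (95% interval -0.21 to 0.31, limma adjusted p = 0.795). Cdkn1b, the mutated gene, read 8.54, 7.85, 8.18 and 8.37 at 30 mg/kg and 8.63 to 9.39 at 20 mg/kg, and fell by 0.69 (SE 0.15, adjusted p = 0.0103). It differed by 0.01 between control sets (adjusted p = 0.984), and it did not pass without replicate 4 at 30 mg/kg (adjusted p = 0.051). Its kinase partner Cdk4 fell by 1.02 (adjusted p = 0.00215), at 8.67 to 9.01 against 9.56 to 10.13. Cdkn1a, the gene of p21, was higher by 1.3 (adjusted p = 0.0189) and Ccnd3, a D cyclin, by 0.59 (adjusted p = 0.0122), and neither passed without replicate 4 at 30 mg/kg (adjusted p = 0.070 and 0.057). Ccnd1 differed by -0.17 (95% interval -0.65 to 0.31).

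Oasl, an interferon-induced gene, read low at both doses and higher in the controls. It read 4.16 to 4.63 at 30 mg/kg, 4.30 to 4.86 at 20 mg/kg and 6.08 to 8.13 in the controls. Against all controls, in the fit of 3 groups, Oasl fell by 2.75 at 30 mg/kg and fell by 2.54 at 20 mg/kg (limma adjusted p = 5.74e-05 and 9.56e-05), and the doses differed by -0.20 (95% interval -0.44 to 0.05, adjusted p = 0.23). Of 15 interferon response genes only Ifi27 passed (6.67%, against 18.3% of all genes). It read 8.58 to 9.81 and 10.34 to 10.85, and fell by 1.37 (SE 0.15, adjusted p = 0.000951), with a control set difference of -0.85 (adjusted p = 0.0476). Tnfsf10, the death ligand TRAIL, read 5.31, 4.72, 4.82 and 3.94 at 30 mg/kg, 4.56 to 6.5 at 20 mg/kg and 6.94 to 7.72 in the controls. It fell by 1.3 between doses (SE 0.17, adjusted p = 0.00173). Against all controls it fell by 2.60 at 30 mg/kg and by 1.33 at 20 mg/kg (adjusted p = 4.02e-06 and 0.00316).

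**Figure D5:**
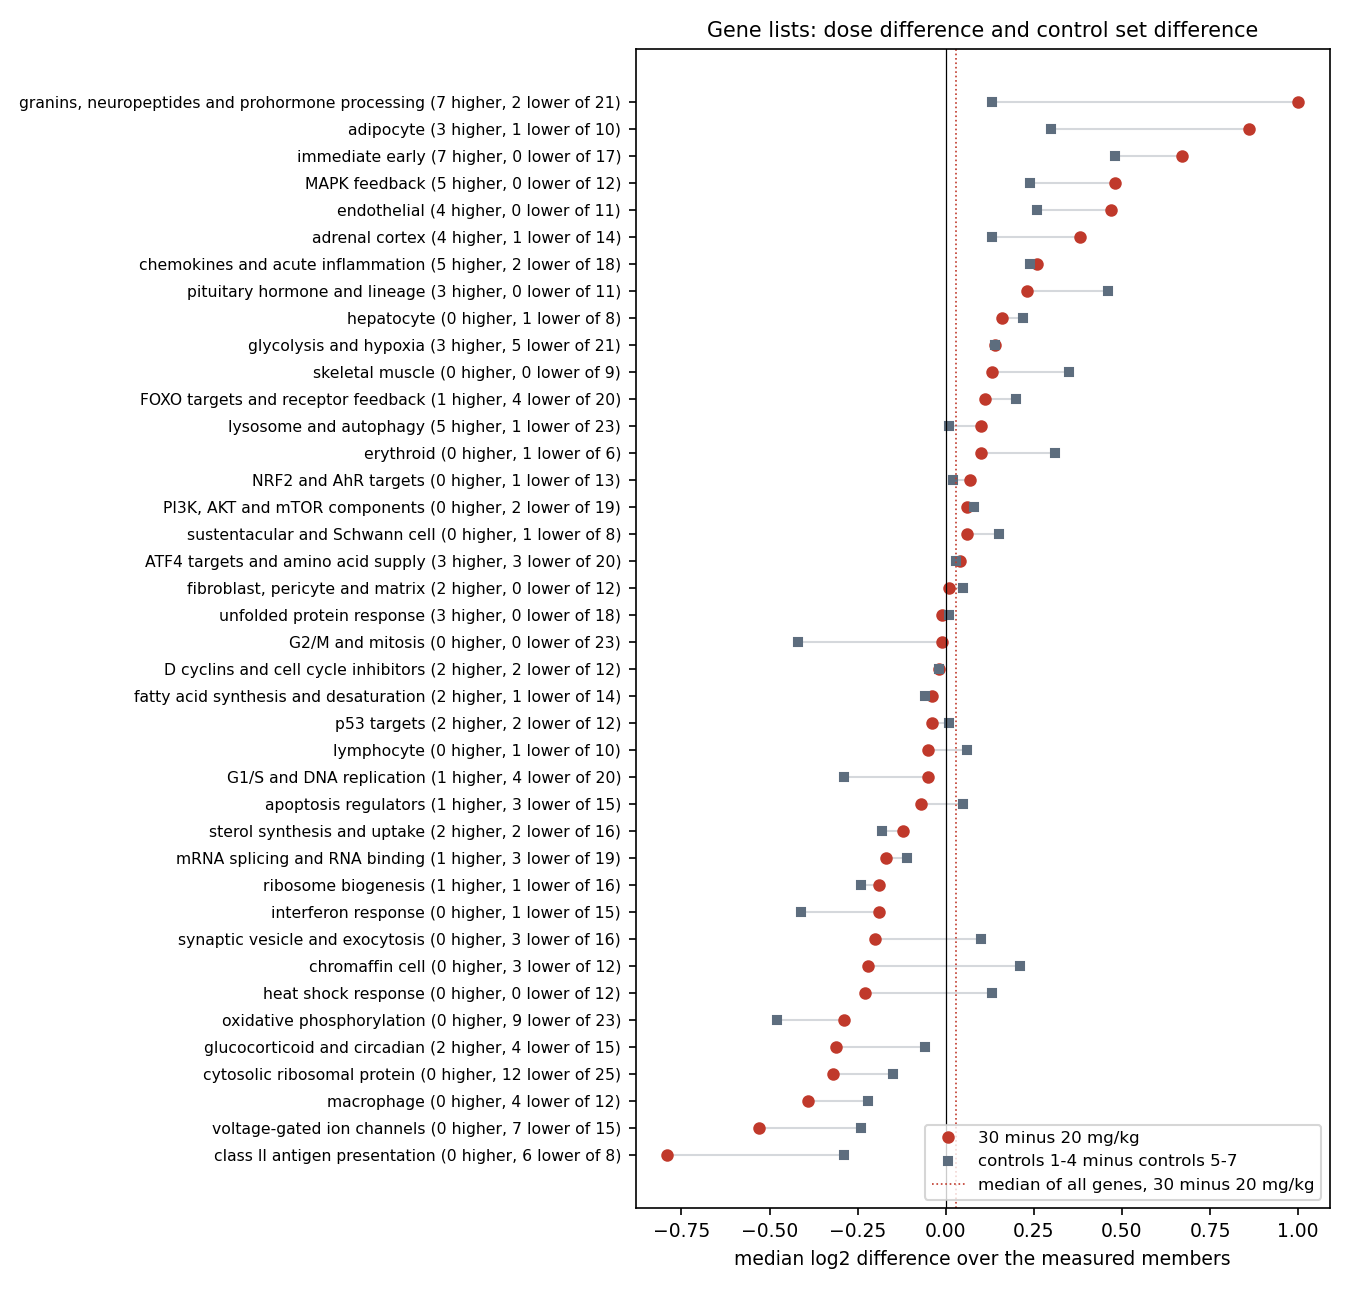
Median log2 difference over the measured members of 40 gene lists, between the doses (circles) and between controls 1 to 4 and controls 5 to 7 (squares), with the number of members past the threshold between doses in each label. The lists range from 1.0 for neuropeptides to -0.79 for class II genes between doses. Circles and squares lie on opposite sides of 0 for the chromaffin markers (-0.22 and 0.21) and the heat shock genes (-0.23 and 0.13). The same holds for the synaptic vesicle and exocytosis genes (-0.2 and 0.1) and for some lists with medians nearer 0.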

How the data were processed

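Values were the log2 intensities of 29214 probe sets on 17 arrays as deposited by the authors, who normalized them with RMA in Affymetrix Expression Console 1.3.0.187, per the submitters' processing notes. RNA was amplified before labelling, per the labels' protocols. Signal over background is not in these values, and the number of arrays limits the precision. Of the probe sets, 15310 had 1 gene symbol, 323 had several and 13581 were not listed with one. Each of 14506 genes was represented by its probe set with the highest mean over all arrays (527 genes had more than 1). The 10 treated libraries were fitted with dose and sex in limma 3.58.1 (R 4.3.3), with Benjamini-Hochberg adjustment over all genes and a threshold of 0.05. Fits of 4 groups (both doses and both control sets) and of 3 groups (controls together), with sex, used all 17 arrays. The sex term of these fits is shared, and male replicate 10 at 20 mg/kg weighs on it. The scripts were tested on simulated data.

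Genes named were the 15 largest differences in each direction among those past the threshold, the 2 members of each of 40 gene lists with the smallest p, members that passed, and a fixed set. A part of them is described. Ctsl, Gpat3, Hdc and Gpr139 fall outside this rule and were named after their values were seen. The comparison, the gene lists and the fixed set were chosen with earlier results of these data known. Sex-linked genes are not reported here. Alternatives covered the model, scaling, probe choice, filters, covariates and each library left out.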

Additional observations from a re-analysis of the deposited data

Results flagged for a closer look

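In 316 sets of values (each of 118 named genes and the median of each of 40 lists, at each dose), 31 had 1 library far from the others of its dose, judged by its gap to the nearest library relative to the whole range. Chance gives about 1 in 20. Of the 31, 8 were at 30 mg/kg and 23 at 20 mg/kg, and 22 of the latter were replicate 10, 1 of 2 males there.

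Replicate 10 at 20 mg/kg was the highest of its dose for Adcyap1 (7.88), Ucn2 (9.92), Agrp (9.95) and Calca (7.8). It was also the highest for Egr1 (10.83), Nr4a2 (8.59), Fos (5.96) and Dusp1 (8.99), and the median of the immediate early list was 7.78 in it. The same held for Lcn2 (10.05), Osmr (5.85), Pdk4 (8.86), Flt1 (8.84) and Cdkn1a (8.41). It was the lowest of its dose for Eaf2 (5.56), RT1-Ba (5.94), RT1-Bb (5.6), RT1-Db1 (5.74), Aif1 (5.58) and Dbp (8.19), and for the median of the interferon response list (4.74). Each of these departures ran in the direction of the 30 mg/kg libraries. It was also the highest in the median of the heat shock list (11.36), where the 30 mg/kg libraries read 9.02 to 9.72. The other male at this dose, replicate 9, stood out in Pomc (6.21).

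At 30 mg/kg, replicate 1 was low for Lynx1 (9.56) and Ccnd3 (8.48) and high for Eaf2 (5.86) and Bcl2l11 (5.04), and lowest in the median of the fibroblast, pericyte and matrix list (6.72). Replicate 4, the male, was low for Adm (7.8) and high for Hdc (6.83), and replicate 2 was high for Pgk1 (9.03).

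The difference between the doses differed between males and females for 2 genes (0.0138%) in limma, and 1283 had an unadjusted p below 0.05. Hdc, the enzyme that makes histamine, had a difference larger by 2.69 in males (adjusted p = 0.0136), with 6.83 in the 1 male at 30 mg/kg, 4.25 to 4.61 in the females there and 4.09 to 4.72 at 20 mg/kg. Gpr139, an orphan receptor, had a difference of -2.81 in males relative to females (adjusted p = 0.0136), with 7.93 and 8.11 in the males at 20 mg/kg and 5.22 in the male at 30 mg/kg. Both rest on 1 male at the higher dose.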

How the results depend on the processing

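The count of 2649 genes between doses stayed within 1.5 times under no sex term (2245), the 4-group fit (2584), quantile normalization (2317), median centring (3336), array weights (2253), robust variances with a trend (2659), probe sets tested singly (2898) or averaged per gene (2645) and both filters on level (2630 and 2299). It moved further in the 3-group fit (1752), at an adjusted p of 0.01 (846), at 2-fold or more (535), in females (1349), without replicates 3 and 4 at 30 mg/kg (1331), and with the cortex (107) or chromaffin (431) marker median or the array SD (0, with 1493 at an unadjusted p below 0.05) as covariate. The cause was not tested. Leaving out 1 library gave 1508 to 3199. The control set count of 523 was 1018 without the sex term, and 177 in the 7 controls alone without it, an alternative chosen after seeing the data. It ranged from 27 to 680 with 1 library left out. The dose difference beyond the controls gave 0 to 8 genes with 1 library left out.

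Of 103 named genes past the threshold, 62 kept the call in all 10 fits with 1 library left out, and 37 lost it without replicate 4 at 30 mg/kg. In females 68 kept it, without replicates 3 and 4 at 30 mg/kg 49, without the sex term 78, after quantile normalization 95, in the 4-group fit 98, in the 3-group fit 89 and with median centring 103. With the cortex marker median as covariate 7 kept it, with the chromaffin marker median 9 and with the array SD 0. For single genes the 3-group fit, both replicates left out and the covariates were added after seeing the data. The array SD turned the sign of Prl (-0.373), Cox4i2 (0.699), C1qb (0.37) and Cd163 (0.38), and of 4 genes that had not passed: Cyp11a1 (-0.164), Cyp11b2 (-1.98), Oasl (0.319) and Ccnd1 (0.104). That covariate separates the doses completely, so these turns allow no conclusion. The chromaffin marker median turned Adcyap1 (-0.595), Lcn2 (-0.381), Fst (-0.094) and Mmd (-0.185), and Pomc (-0.691), Cyp11b1 (0.338), Pik3r1 (0.041) and Ccnd1 (0.268), which had not passed. That median nearly separates the doses, so these turns allow no conclusion either. The other turns were in genes that had not passed. In females and, with the same value, without replicate 4 at 30 mg/kg, they were Cyp11b1 0.078, Ccnd1 0.024, Hdc -0.056 and Gpr139 0.012. Without replicates 3 and 4 they were Cyp11b1 0.303, Ccnd1 0.074, Top2a -0.035, Hdc -0.125 and Gpr139 0.055. Top2a was -0.059 after quantile normalization. With 1 library left out, the ranges were -0.449 to 0.078 for Cyp11b1, -0.335 to 0.024 for Ccnd1, -0.01 to 0.15 for Top2a, -0.056 to 0.914 for Hdc and -0.96 to 0.012 for Gpr139. No paired analysis was possible because the dose groups share no title number. Dose and title number cannot be told apart, and 1 male limits the sex term at 30 mg/kg.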
